A study of Mus musculus with 32 samples.

Results

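At embryonic stage E19.5, DN1 thymocytes with low levels of both the BCL11b and the ID2 reporter were compared with DN1 thymocytes that carried neither reporter. The comparison was fixed by the gate labels, with 3 libraries of each gate, which is 6 of the 32 libraries of the series. All cells came from the embryonic thymus of mice named 5x polychromILC in the labels, a reporter strain, and every group, the reporter-negative gate included, was sorted from that strain at E19.5. The low gate is labelled DN1-BCL11blowID2low and the reporter-negative gate DN1-BCL11b-ID2-, and in each the libraries carry the numbers 1, 2 and 4. The other 12 libraries of that stage, 3 each of BCL11b+ID2-, BCL11b+ID2+, BCL11b-ID2+ and DN2, entered the estimate of the spread. Values are normalised counts, that is reads per gene divided by a size factor of the library, and 13840 of 26244 genes, with a value of 10 or more in at least 3 libraries, were tested with limma on log2(value + 1). A gene is called where its p, adjusted over all genes tested, is under 0.05. Libraries of E15.5 were normalised apart and were not used here. Whether the libraries of a gate came from different animals is not stated in the labels, so the p-values reflect only how these libraries vary, part of which may be technical.

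Thymocytes pass through stages without CD4 or CD8, and DN1, the earliest, holds a mixture of cells. Progenitors that have just entered the thymus express KIT, FLT3 and CD34 and keep stem cell and myeloid transcription factors. T-lineage commitment switches on BCL11b, which shuts that legacy programme down. ID2 binds E-protein transcription factors and keeps them off DNA, and innate lymphoid cells (ILCs) and natural killer (NK) cells express much of it. The fetal thymus also makes γδ T cells in waves, some of which acquire the ability to produce IL-17 before they leave it.

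The sorting genes were read as a check of the gates. Bcl11b (chromosome 12, 107910403 to 108003602, minus strand, GRCm38, as for all coordinates) had 476, 491 and 376 normalised counts in libraries 1, 2 and 4 of the BCL11blowID2low gate, against 17.1, 2.89 and 28.8 in those of the BCL11b-ID2- gate. Id2 (chromosome 12, 25093799 to 25097140, minus strand), which encodes the E-protein inhibitor, had 183, 165 and 159 normalised counts in the BCL11blowID2low libraries and 20.7, 24.6 and 18.2 in the BCL11b-ID2- libraries. Each BCL11blowID2low library was above each BCL11b-ID2- library for both genes, and the log2 differences were 5.12 ± 0.50 SE for Bcl11b and 2.95 ± 0.74 SE for Id2 (adjusted p = 1.95e-07 and 0.00772, limma). In the gates positive for the reporter, Bcl11b averaged 1674 ± 348 in BCL11b+ID2- and 515 ± 95.7 in BCL11b+ID2+ (mean ± SD, n = 3), and Id2 averaged 1119 ± 138 in BCL11b+ID2+ and 1438 ± 140.0 in BCL11b-ID2+. Id2 in the BCL11blowID2low libraries lay below that of the ID2+ gates, whereas the range of Bcl11b met that of the BCL11b+ID2+ gate. Both genes were used for the sort, so their differences are a check and not a result.

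Of 3 surface genes that mark the stages of early thymocytes, Kit was called and Cd44 and Il2ra were not. Cd44, the hyaluronan receptor that marks DN1 cells, had 1208, 1434 and 1052 normalised counts in the BCL11blowID2low libraries and 1376, 1063 and 1279 in the BCL11b-ID2- libraries, with overlapping ranges (adjusted p = 0.984). Kit, the stem cell factor receptor of early thymic progenitors, had 44.8, 67.1 and 43.6 against 1123, 1199 and 849.9, 20.4-fold lower (log2 difference -4.34 ± 0.28 SE, adjusted p = 2.21e-10). Il2ra, the CD25 chain that marks the next stage, had 340.3, 363 and 124 against 243, 398 and 434 and did not pass (adjusted p = 0.376). Cd44 was thus present in each library of both gates, and Kit was low in all BCL11blowID2low libraries.

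Depth, counted in reads recovered from the values, was 2599470 to 7060056 per BCL11blowID2low library and 4065398 to 6155330 per BCL11b-ID2- library. The mitochondrial ribosomal RNAs took 28.7 to 45.4% and 40.9 to 50.3% of them, with the lowest share in BCL11blowID2low library 1, which was also the shallowest. A single read was worth 0.807 to 1.66 normalised counts in the BCL11blowID2low libraries and 0.723 to 1.22 in the BCL11b-ID2- libraries. Across the 13840 genes tested, log2 values correlated with r = 0.804 to 0.848 among the BCL11blowID2low libraries and 0.700 to 0.775 between the gates, and these points share their libraries. Among the BCL11b-ID2- libraries r was 0.874 to 0.886. The BCL11blowID2low libraries correlated at 0.773 to 0.837 with BCL11b+ID2+ and 0.738 to 0.832 with BCL11b+ID2-, which overlaps the range among themselves. With BCL11b-ID2+ r was 0.747 to 0.803 and with DN2 0.696 to 0.778.

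Genes of the T-cell receptor complex and of IL-17-producing γδ T cells were higher in the BCL11blowID2low gate than in the BCL11b-ID2- gate, and genes of multipotent and myeloid progenitors were lower. Of 13840 genes, 1944 passed at an adjusted p under 0.05, which is 14.0% of the genes tested. Of these, 927 were higher (6.70%) and 1017 lower (7.35%) in the BCL11blowID2low gate. The median log2 difference of all genes tested was -0.14. The libraries of the gates did not overlap for 28.3% of all genes, 1769 higher and 2144 lower, and 897 of these were also called higher (6.48%) and 994 lower (7.18%). Between 1388 and 1996 genes passed when any library of either gate was left out.

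**Figure D1:**
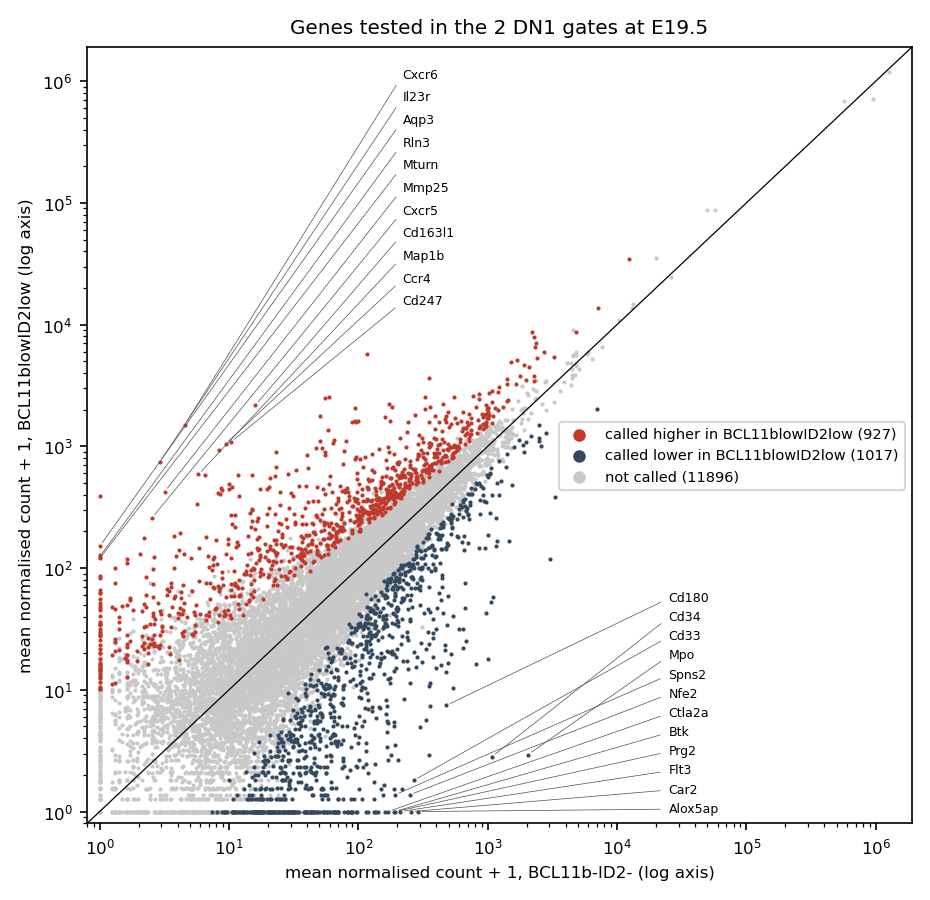
Mean normalised count of each of the 13840 genes tested in the BCL11blowID2low gate (vertical axis) against the BCL11b-ID2- gate (horizontal axis), both as value + 1 on log axes, with 3 libraries per gate. Coloured points are the 927 genes called higher and the 1017 called lower, and the labelled genes are leading genes of the ranking in each direction.

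Genes of the T-cell receptor complex and its proximal signalling were higher in the BCL11blowID2low gate as a group. Of 24 members tested, 18 were higher and 2 lower, with a median log2 difference of 2.63, where 6.70% of all genes were higher. Cd3e (chromosome 9, 44998740 to 45009627, minus strand), a signalling chain of the CD3 complex, had 6241, 5984 and 5007 normalised counts in the BCL11blowID2low libraries, against 149, 60.0 and 135 in the BCL11b-ID2- libraries. It was 50.1-fold higher (log2 difference 5.73 ± 0.29 SE, adjusted p = 2.86e-12), and no library of either gate overlapped the other gate. Cd247 (chromosome 1, 165788681 to 165877277, plus strand), the ζ chain, had 1067, 1182 and 1013 against 17.1, 7.23 and 3.84 and was 116-fold higher (log2 difference 6.92 ± 0.38 SE, adjusted p = 1.41e-11). Cd3g and Cd3d, the γ and δ chains of CD3, followed with log2 differences of 5.56 and 4.25. Zap70, the kinase that binds the phosphorylated chains, had 456, 477 and 367 against 7.32, 14.5 and 1.92 (adjusted p = 1.84e-08). The exchange factor gene Rasgrp1, which couples the receptor to RAS, was 35.9-fold higher and Lat, an adaptor of the same pathway, had a log2 difference of 2.5.

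The kinase gene Lck did not follow the chains it phosphorylates. It had 168, 418 and 244 normalised counts in the BCL11blowID2low libraries and 349, 482 and 502 in the BCL11b-ID2- libraries, which overlapped (log2 difference -0.77 ± 0.27 SE, adjusted p = 0.0596). Lck was called lower without BCL11blowID2low library 2 or BCL11b-ID2- library 1 (adjusted p = 0.005 and 0.0462). Cd27, a costimulatory receptor that IL-17-producing γδ T cells lack, was lower at 393, 173 and 282 against 1192, 1155 and 765 (adjusted p = 0.000225), as was Ubash3a, a negative regulator of receptor signalling (log2 difference -2.61). The remaining members that did not pass were Ptcra, Cd5 and Trat1. Ptcra, the pre-T α chain that the first αβ receptor uses, had 0, 0 and 16.1 against 0, 0 and 0.960 (adjusted p = 0.647).

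Receptor constant genes separated by locus. Trdc (chromosome 14, 54142851 to 54148868, plus strand), the δ constant gene, had 1959, 2971 and 2599.7 normalised counts in the BCL11blowID2low libraries and 52.4, 45.6 and 65.3 in the BCL11b-ID2- libraries, which was 46.1-fold higher with a log2 difference of 5.50 ± 0.27 SE (adjusted p = 2.86e-12). Among the γ constant genes, Tcrg-C1, Tcrg-C2 and Tcrg-C4 were 5.89-fold higher, 17.6-fold higher and 18.8-fold higher, and their reads are uncertain because similar constant genes may share them. The β constant gene Trbc1 had 684, 986 and 940.3 against 781, 784 and 813, with overlapping ranges (adjusted p = 0.775). Trbc2 had 1192, 1702 and 1781 against 1749, 1856 and 1809 and did not pass either (adjusted p = 0.394). Trac, the α constant gene, was called at 99.6, 154 and 85.6 against 6.10, 42.7 and 9.60 (adjusted p = 0.0492), but lost the call without BCL11blowID2low library 1, 2 or 4 and without BCL11b-ID2- library 1 or 4. The call of Trac was lost as well under TMM scaling, library weights, edgeR and no filter. In all, 5 of 8 constant genes were higher and none lower, where 6.70% of all genes were higher.

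The variable segments of the γ and δ loci, a set taken up after the values had been seen, gave the same direction. All 7 γ segments in the table passed the filter and were called higher, against 6.70% of all genes, with a median log2 difference of 4.90. Tcrg-V6 (chromosome 13, 19190356 to 19190929, plus strand) had 315, 423 and 425 normalised counts in the BCL11blowID2low libraries and none in the BCL11b-ID2- libraries, so it was at least 419-fold higher (adjusted p = 9.48e-08). Of the 4 δ segments, 3 passed the filter and 2 were called higher, and Trdv4 (chromosome 14, 54074905 to 54075515, plus strand) had 442, 684 and 608 against 8.54, 2.17 and 5.76 (log2 difference 6.59 ± 0.63 SE, adjusted p = 1.16e-07). Trdv4 is Vδ1 in older naming, and receptors that join Vγ6 to Vδ1 belong to a fetal wave of IL-17-producing γδ T cells. A lower bound was taken here and below at a floor of 3 reads over the gate without reads, and it covers counting error only. Trgv2, Tcrg-V1 and Tcrg-V4 had log2 differences of 6.11, 4.90 and 4.92. Tcrg-V5, the segment of the earliest fetal wave, had 21.6, 17.9 and 17.8 against 2.44, 0.723 and 0.960 (adjusted p = 0.0049). Tcrg-V3 had 4.98, 17.9 and 5.65 against no reads (adjusted p = 0.0149), and its call was lost without BCL11blowID2low library 2, in the fit of the 6 libraries alone, with a pseudocount of 8 and with DESeq2 on recovered reads. Trdv2-2, at 23.2, 4.47 and 7.26 against no reads, lost its call without BCL11blowID2low library 1, in the fit of the 6 libraries alone and with a pseudocount of 8.

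Among the other gates, Tcrg-V6 averaged 66.2 ± 39.7 normalised counts in the BCL11b+ID2- libraries (mean ± SD, n = 3). It averaged 26.2 ± 16.8 with both reporters, 2.80 ± 2.08 with ID2 alone and 0.222 ± 0.384 in DN2. Trdv4 averaged 97.3 ± 69.8, 91.5 ± 48.1, 42.9 ± 10.7 and 0 ± 0 in the same gates. For both segments every BCL11blowID2low library was above each of the other 15 libraries of the stage. Tcrg-V4, in contrast, averaged 56.8 ± 22.2 in BCL11blowID2low and 431 ± 98.1 in BCL11b+ID2-.

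Genes of the IL-17 programme of γδ T cells and ILC3s were higher in the BCL11blowID2low gate. Of 14 genes tested from the ILC3 and IL-17 list, 9 were higher and 1 lower (median log2 difference 3.50, or 3.75 with genes without reads at their bound). The number higher was 7 or 8 when each library in turn was left out. It was 8 in the fit of the 6 libraries alone and with a pseudocount of 8. Of 13 γδ regulators, 9 were higher and 1 lower (median 4.11), and Il23r is among the genes of both lists. Over all genes the shares were 6.70% higher and 7.35% lower. Il23r (chromosome 6, 67422932 to 67491855, minus strand), the receptor subunit through which IL-23 sustains IL-17 producers, had 986, 590.4 and 656 normalised counts in the BCL11blowID2low libraries, against 0, 0 and 5.76 in the BCL11b-ID2- libraries. It was 387-fold higher (log2 difference 8.59 ± 0.88 SE, adjusted p = 3.39e-07). Il17a (chromosome 1, 20730905 to 20734496, plus strand) had 28.2, 57.0 and 79.9 against no reads and was at least 59.5-fold higher (adjusted p = 0.000123), so the cytokine transcript itself was present in each BCL11blowID2low library. Il17f had 1.66, 20.1 and 18.6 against no reads (adjusted p = 0.0191), a call lost without BCL11blowID2low library 2 or 4 or any BCL11b-ID2- library, in the fit of the 6 libraries alone and with a pseudocount of 8. The IL-1 receptor gene Il1r1, whose ligand acts with IL-23 on these cells, had 1119, 872 and 686 against 233, 181 and 98.0 (adjusted p = 0.0243), a call lost without BCL11blowID2low library 1 or 2 or BCL11b-ID2- library 2 or 4.

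Surface receptors of IL-17-producing γδ T cells were called with them. Cd163l1 (chromosome 7, 140218267 to 140231145, plus strand), a scavenger receptor of γδ T cells also named SCART1, had 2027, 2144 and 2387 normalised counts in the BCL11blowID2low libraries and 4.88, 23.9 and 16.3 in the BCL11b-ID2- libraries, 145-fold higher (adjusted p = 1.45e-10). Ccr6, the CCL20 receptor, had 133, 49.2 and 118 against 0, 0 and 0.960 and was 312-fold (95% counting interval 56.0 to 12331) higher (adjusted p = 6.55e-06). Cxcr5, the CXCL13 receptor, had 359, 219 and 193 against 3.66, 0 and 0.960 (adjusted p = 7.79e-06), and Il17re, a receptor subunit for IL-17C, had a log2 difference of 4.1. The call of Il17re was lost without BCL11b-ID2- library 4 and with edgeR. Every BCL11blowID2low library was above every BCL11b-ID2- library for these genes, which also held for 12.8% of all genes tested.

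The transcription factors that direct this fate moved unequally. Maf, which is required for IL-17-producing γδ T cells, had 1844, 1724 and 1161 normalised counts in the BCL11blowID2low libraries and 106, 79.6 and 81.6 in the BCL11b-ID2- libraries (log2 difference 4.11 ± 0.32 SE, adjusted p = 5.55e-09). Sox13, a factor of the γδ lineage, was 6.81-fold higher (adjusted p = 0.00462), and Blk, a SRC-family kinase of the same cells, had 428, 541 and 498 against 7.32, 3.62 and 16.3 (adjusted p = 3.67e-07). Zbtb16 (chromosome 9, 48654297 to 48836222, minus strand), the PLZF factor of innate-like T cells and ILC precursors, had 581, 967 and 471 against 15.9, 5.06 and 45.1, 30.6-fold higher (adjusted p = 3.75e-07). Sox4, which acts beside Sox13 in IL-17-producing γδ T cells, was the member called lower, at 31.5, 13.4 and 11.3 against 191, 192 and 160.4 (log2 difference -3.34 ± 0.59 SE, adjusted p = 0.000336). Etv5, another γδ factor, had overlapping values of 88.0, 79.4 and 39.5 and 138, 66.6 and 43.2 (adjusted p = 0.945). The member of the ILC3 and IL-17 list called lower was Kit.

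**Figure D2:**
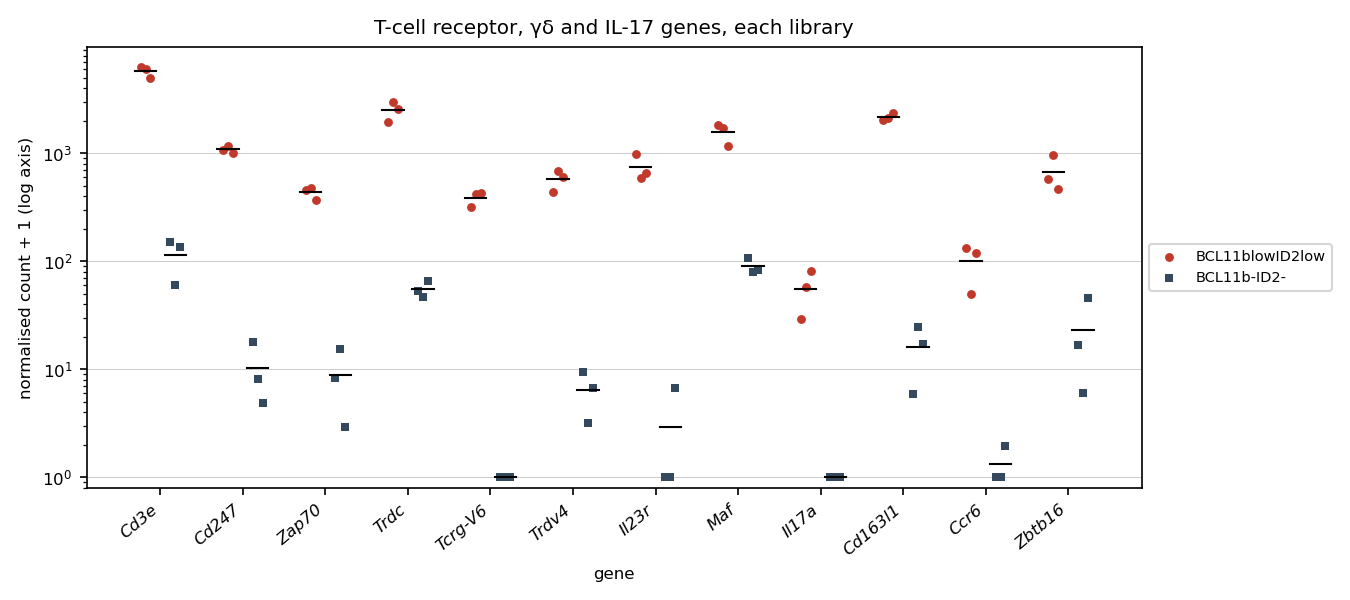
Normalised count + 1 (log axis) of 12 genes of the T-cell receptor complex, the γδ loci and the IL-17 programme in each library of the BCL11blowID2low gate (left of each pair) and the BCL11b-ID2- gate (right), with a bar at the mean of the 3 libraries. The libraries of the gates do not overlap for any gene plotted, nor for 28.3% of all genes tested.

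Promoter windows were read for 4 genes called higher and 2 called lower, to show the sequence near their starts. Windows run from 250 bases before to 50 bases after the RefSeq start (GRCm38.p6), on the strand of the gene, and capitals mark the E-box CANNTG, the motif bound by the E proteins that ID2 and ID3 inhibit.
Cd3e (chr9:45009562-45009861, minus strand): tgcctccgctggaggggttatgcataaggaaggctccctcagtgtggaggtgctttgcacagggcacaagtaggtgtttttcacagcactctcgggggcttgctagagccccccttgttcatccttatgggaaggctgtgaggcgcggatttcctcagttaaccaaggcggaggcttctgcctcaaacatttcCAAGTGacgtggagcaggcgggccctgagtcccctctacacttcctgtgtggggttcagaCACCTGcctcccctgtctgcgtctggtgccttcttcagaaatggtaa
Cd247 (chr1:165788431-165788730, plus strand): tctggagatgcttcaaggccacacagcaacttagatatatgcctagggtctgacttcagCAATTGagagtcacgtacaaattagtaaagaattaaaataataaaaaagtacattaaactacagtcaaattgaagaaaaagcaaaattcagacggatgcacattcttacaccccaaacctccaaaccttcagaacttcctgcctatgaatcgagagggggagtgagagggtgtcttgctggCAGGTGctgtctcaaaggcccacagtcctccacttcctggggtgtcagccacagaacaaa
Il23r (chr6:67491806-67492105, minus strand): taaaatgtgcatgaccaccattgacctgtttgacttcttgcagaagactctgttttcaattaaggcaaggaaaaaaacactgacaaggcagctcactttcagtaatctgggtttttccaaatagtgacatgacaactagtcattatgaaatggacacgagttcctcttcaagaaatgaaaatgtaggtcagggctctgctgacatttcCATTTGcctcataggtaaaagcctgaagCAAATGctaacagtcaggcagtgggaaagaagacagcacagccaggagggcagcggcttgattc
Cxcr6 (chr9:123806227-123806526, plus strand): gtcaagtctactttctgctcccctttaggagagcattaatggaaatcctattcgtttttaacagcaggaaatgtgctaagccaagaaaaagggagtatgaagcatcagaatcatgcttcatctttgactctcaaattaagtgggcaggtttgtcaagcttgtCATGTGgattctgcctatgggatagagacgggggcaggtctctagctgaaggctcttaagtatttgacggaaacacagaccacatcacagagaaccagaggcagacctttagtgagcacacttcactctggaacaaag
Mpo (chr11:87793534-87793833, plus strand): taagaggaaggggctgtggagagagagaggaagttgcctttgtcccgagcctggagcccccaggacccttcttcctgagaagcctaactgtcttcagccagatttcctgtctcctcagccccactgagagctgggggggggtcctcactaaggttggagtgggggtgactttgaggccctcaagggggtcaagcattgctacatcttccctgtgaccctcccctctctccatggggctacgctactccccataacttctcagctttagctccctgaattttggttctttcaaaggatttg
Cd34 (chr1:194938571-194938870, plus strand): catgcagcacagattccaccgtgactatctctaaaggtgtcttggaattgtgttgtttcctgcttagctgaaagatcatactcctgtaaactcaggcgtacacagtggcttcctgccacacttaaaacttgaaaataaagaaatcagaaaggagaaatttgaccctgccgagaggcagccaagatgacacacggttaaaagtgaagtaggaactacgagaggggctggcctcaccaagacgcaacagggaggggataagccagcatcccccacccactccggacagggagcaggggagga
The windows of Cd3e, Cd247 and Il23r held 2 E-boxes each and that of Cxcr6 held 1, while those of Mpo and Cd34 held none. E-boxes are common: 72.3% of the 32851 windows of the RefSeq table hold 1 or more, as do 68.3% of the windows of genes called higher, 69.3% of those called lower and 63.9% of those of genes tested. These matches describe letters in the windows and were not tied to binding.

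Genes of ILC precursors were mostly higher, whereas those of ILC2s and NK cells went both ways. Of 16 ILC precursor genes, 11 were higher and 2 lower (median log2 difference 2.69), where 6.70% of all genes were higher and 7.35% lower. Id2, Gata3 and Ets1 among them are shared with T cells or with the sort. Zbtb16 is a factor of innate-like T cells as well, and Cxcr6 a receptor of tissue lymphocytes. These genes therefore do not separate ILC precursors from T cells. Cxcr6 (chromosome 9, 123806475 to 123811760, plus strand), the CXCL16 receptor of ILC precursors and tissue lymphocytes, had 1210.1, 1523 and 1771 normalised counts in the BCL11blowID2low libraries, against 3.66, 2.17 and 4.80 in the BCL11b-ID2- libraries, 424-fold higher (log2 difference 8.40 ± 0.41 SE, adjusted p = 2.86e-12). Pdcd1, the PD-1 receptor found on ILC precursors, had 583, 275 and 358 against 12.2, 3.62 and 6.72 (adjusted p = 2.45e-06). Il18r1 and Il7r, receptor chains for IL-18 and IL-7, had log2 differences of 4.02 and 3.47. Arg1, the arginase of ILC precursors and ILC2s, was called at 94.6, 76.0 and 38.7 against 3.66, 0 and 27.9 (adjusted p = 0.00801), a call lost without BCL11b-ID2- library 2 and in the fit of the 6 libraries alone.

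ILC2 genes gave 9 higher and 5 lower of 25 tested, where 6.70% of all genes were higher and 7.35% lower. Rora, an ILC2 factor also used by IL-17 producers, had 627, 338 and 366 normalised counts in the BCL11blowID2low libraries and 14.6, 9.40 and 31.7 in the BCL11b-ID2- libraries (adjusted p = 2.72e-08). Ptgdr2, the prostaglandin D2 receptor, had 212, 139 and 68.6 against 0, 9.40 and 0 (adjusted p = 2.17e-05). Il1rl1, the IL-33 receptor that defines ILC2s, was lower at 1.66, 1.12 and 2.42 against 41.5, 71.6 and 21.1 (adjusted p = 0.000341), and averaged 3624 ± 389 in the BCL11b+ID2+ gate. Il17rb, the IL-25 receptor chain, had 13.3, 5.59 and 5.65 against 30.5, 93.3 and 63.4 (adjusted p = 0.00765), a call lost without BCL11b-ID2- library 2. The number of ILC2 genes called lower fell to 3 without BCL11blowID2low library 2 or BCL11b-ID2- library 4 and to 2 without BCL11b-ID2- library 2.

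Of 23 NK cell and ILC1 genes, 3 were higher and 5 lower, where 6.70% of all genes were higher and 7.35% lower. Il2rb, the IL-15 receptor β chain, had 1796, 1661 and 1376 normalised counts in the BCL11blowID2low libraries and 86.6, 37.6 and 157 in the BCL11b-ID2- libraries (log2 difference 4.3 ± 0.37 SE, adjusted p = 2.19e-08). Tyrobp and Fcer1g, adaptors of NK and myeloid receptors, were 19.4-fold lower and 8.17-fold lower (adjusted p = 6.49e-07 and 4.65e-05). The NK receptor gene Ncr1 had no reads in the BCL11blowID2low libraries and 2.44, 1.45 and 1.92 in the BCL11b-ID2- libraries, and the NK factors Eomes and Tbx21 averaged 0.745 and 0.807 against 0.407 and 0.640. In the BCL11b-ID2+ gate Il2rb averaged 10214 ± 280.5 and Ncr1 582 ± 125.

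Regulators of the T lineage gave 10 higher and 2 lower of 22, where 6.70% of all genes were higher and 7.35% lower. Bcl11b is itself a T-lineage regulator, and its difference follows from the sort and is not a result here. Ets1, which T, NK and ILC development requires, had 2498, 2310.2 and 1904 normalised counts in the BCL11blowID2low libraries and 121, 189 and 206 in the BCL11b-ID2- libraries (log2 difference 3.72 ± 0.24 SE, adjusted p = 1.45e-10). Ikzf3, the Aiolos member of the Ikaros family, had 3049, 2248 and 2379 against 42.7, 87.5 and 46.1 (adjusted p = 1.4e-10), while its relative Ikzf1 had 2433, 2069 and 1666 against 2184, 1842 and 1659 and did not pass (adjusted p = 0.778). Lef1 had 863, 463 and 437 against 43.9, 3.62 and 34.6 (adjusted p = 1.69e-06). The gene of a related factor, Tcf7, overlapped at 1584, 1820.4 and 1023 and 1281, 939.7 and 829.8 (adjusted p = 0.126). Tcf7 was called higher without BCL11blowID2low library 4 (adjusted p = 0.0219). Tox2 and Zbtb7b were higher by 5.82 and 3.25 on the log2 scale. Gata3, which T cells and ILC2s require, rose less, with 390.1, 347 and 349 against 106, 125 and 182 (log2 difference 1.42 ± 0.24 SE, adjusted p = 0.000161). Myb, a factor of progenitors and cycling thymocytes, was lower at 103, 189 and 165 against 1176, 1316 and 996 (adjusted p = 5.74e-07).

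The Notch pathway, which starts the T programme in progenitors, had 3 genes higher and 3 lower of 14. Over all genes the shares were 6.70% higher and 7.35% lower. Hes1, its direct target, had 0, 3.35 and 8.88 normalised counts in the BCL11blowID2low libraries and 251, 181 and 132 in the BCL11b-ID2- libraries (log2 difference -5.70 ± 0.62 SE, adjusted p = 8.43e-07). The receptor genes Notch1 and Notch3 were 3.24-fold lower and 22.2-fold lower (adjusted p = 7.29e-05 and 0.000428), and Notch2 did not pass (adjusted p = 0.471). In the other direction, the ligand gene Jag1 had 81.3, 115 and 178 against 6.10, 2.89 and 8.64 (adjusted p = 2.69e-06), and Dtx1 and Lfng, a target and a glycosyltransferase that tunes the receptor, had log2 differences of 4.37 and 2.03.

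Among Id genes, E proteins and their targets the calls went both ways, with 3 of 11 higher, the sorting gene Id2 among them, and 3 lower. Over all genes the shares were 6.70% higher and 7.35% lower. DESeq2 on recovered reads called 5 genes of the list higher. Id3, another E-protein inhibitor, which T-cell receptor signals induce and γδ T cells use, had 56.4, 83.9 and 138 normalised counts in the BCL11blowID2low libraries and 6.10, 0 and 17.3 in the BCL11b-ID2- libraries (log2 difference 4.12 ± 0.85 SE, adjusted p = 0.0016). Of the E proteins, Tcf4 was 29.5-fold lower, at 11.6, 11.2 and 21.8 against 427, 412 and 476 (adjusted p = 3.66e-09), and Tcf3 did not pass (adjusted p = 0.111). Of the recombinase genes, which E proteins activate, Rag1 did not pass, with 317, 248 and 159 against 97.6, 135 and 98.0 (adjusted p = 0.0644), but was called higher without BCL11blowID2low library 4 and with DESeq2 on recovered reads (adjusted p = 0.0332 and 0.0395). Rag2 was called lower at 34.9, 45.8 and 23.4 against 128, 217 and 199 (adjusted p = 0.0363), and its call was lost when each library of either gate in turn was left out and with no filter.

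Regulators of stem and progenitor cells were lower in the BCL11blowID2low gate almost throughout. Of 23 tested, 19 were lower and 1 higher, with a median log2 difference of -4.96, where 7.35% of all genes were lower. Lyl1 (chromosome 8, 84701457 to 84704715, plus strand), a bHLH factor of early thymic progenitors, had 0, 0 and 1.61 normalised counts in the BCL11blowID2low libraries, against 172, 199 and 193 in the BCL11b-ID2- libraries. It was 349-fold (95% counting interval 96.7 to 2885) lower (adjusted p = 6.42e-06). Bcl11a (chromosome 11, 24078056 to 24174123, plus strand), the paralogue of Bcl11b used by progenitors and B cells, had 0, 39.1 and 12.1 against 972, 1035 and 989 (log2 difference -6.95 ± 0.89 SE, adjusted p = 6.02e-06). Erg, an Ets factor of stem cells, had 0, 62.6 and 0.807 against 585, 629 and 712 (adjusted p = 0.000104), so its reads in the BCL11blowID2low gate came almost wholly from library 2. Spi1, the PU.1 factor of myeloid fate, was 17.3-fold lower (adjusted p = 0.000948), and Mef2c and Lmo2, factors of lymphoid-primed progenitors and of stem cells, were 52.6-fold lower and at least 58.0-fold lower. Hoxa7, a homeobox gene of progenitors, had no reads in the BCL11blowID2low gate, against 107, 91.9 and 44.2 in the BCL11b-ID2- gate. Gfi1b, a factor of erythroid and megakaryocytic fate, likewise had no reads, against 98.8, 99.8 and 91.2. The member called higher was Fli1 (log2 difference 0.85 ± 0.19 SE, adjusted p = 0.00281).

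Surface genes of progenitors went the same way, with 10 of 16 lower and 2 higher, or 1 higher without BCL11blowID2low library 4 or BCL11b-ID2- library 1 or 2. Over all genes the shares were 6.70% higher and 7.35% lower. Cd34 (chromosome 1, 194938819 to 194961279, plus strand), the sialomucin of stem and progenitor cells, had 0, 2.24 and 3.23 normalised counts in the BCL11blowID2low libraries and 994, 1249 and 987 in the BCL11b-ID2- libraries, 591-fold lower (log2 difference -8.81 ± 0.76 SE, adjusted p = 2.72e-08). Flt3 (chromosome 5, 147330741 to 147400489, minus strand), the receptor of lymphoid-primed progenitors, had no reads against 231, 166 and 230.5 and was at least 191-fold lower (adjusted p = 5.18e-06). Cd24a was 19.3-fold lower at 21.6, 70.4 and 79.1 against 1092, 1046 and 1166 (adjusted p = 2.88e-07). In these bulk libraries fewer cells of a type and less RNA per cell cannot be told apart, which holds for each lineage list here.

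**Figure D3:**
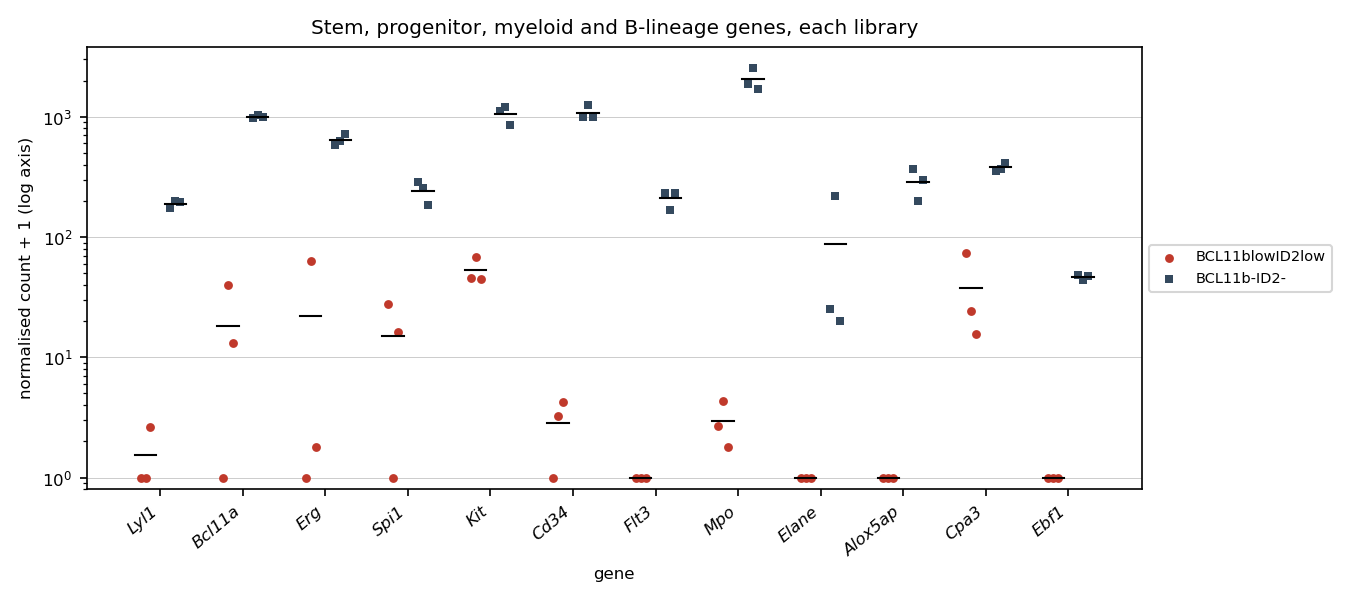
Normalised count + 1 (log axis) of 12 stem, progenitor, myeloid and B-lineage genes in each library of the BCL11blowID2low gate (left of each pair) and the BCL11b-ID2- gate (right), with a bar at the mean of the 3 libraries. The BCL11blowID2low libraries are at or near 0 for Flt3, Mpo and Ebf1.

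Myeloid granule genes were near 0 in the BCL11blowID2low gate. Mpo (chromosome 11, 87793581 to 87804413, plus strand), the myeloperoxidase of granulocyte and monocyte progenitors, had 1.66, 3.35 and 0.807 normalised counts in its libraries, against 1882, 2567 and 1704 in the BCL11b-ID2- libraries, 1057-fold lower (log2 difference -9.52 ± 0.81 SE, adjusted p = 2.19e-08). The fold of Mpo rests on few reads in the BCL11blowID2low gate and is uncertain. Prtn3, Elane and Ctsg, the granule proteases, had no reads in the BCL11blowID2low libraries. In the BCL11b-ID2- gate Elane had 24.4, 218 and 19.2, so library 2 of that gate held most of its reads. Prtn3 was also highest there, with 37.8, 188 and 61.5, as was Ctsg, with 14.6, 129 and 49.9. The calls of Elane and Ctsg were lost with DESeq2 on recovered reads. Of 13 granulocyte and monocyte progenitor genes tested, 8 were lower and 1 higher, namely Ccr2, a receptor that γδ T cells share with monocytes. Over all genes the shares were 7.35% lower and 6.70% higher. The 4 granulocyte progenitor markers summed to 0.807 to 3.35 in the BCL11blowID2low libraries and 1834 to 3103 in the BCL11b-ID2- libraries.

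Among genes of other blood lineages, those of the B, dendritic, mast cell and erythroid lists had more members called lower than higher in limma, and those of macrophages had no call. B-lineage genes were lower in 7 of 17 and higher in 2, Blk and Il7r, both also listed elsewhere. Over all genes the shares were 7.35% lower and 6.70% higher. Ebf1, the B-lineage factor, had no reads against 47.6, 42.7 and 46.1 (adjusted p = 0.000159), and Pax5, Vpreb1 and Igll1 were at 0 in the BCL11blowID2low gate as well. The 7 B-lineage markers summed to 78.3 to 239.7 in the BCL11blowID2low libraries and 189.5 to 245 in the BCL11b-ID2- libraries, so the sums overlapped while 5 of the 7 were at 0. DESeq2 called 4 B-lineage genes lower and 4 higher. Dendritic genes were lower in 9 of 15 and higher in 1, Xcr1, whose call was lost with edgeR. Siglech and Flt3 were at 0 in the BCL11blowID2low gate. The 5 dendritic markers summed to 67.0 to 195 in the BCL11blowID2low libraries and 325 to 483 in the BCL11b-ID2- libraries. The dendritic count was 5 lower without BCL11blowID2low library 2 or BCL11b-ID2- library 1 or 4.

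Mast cell and basophil genes were lower in 6 of 13, where 7.35% of all genes were lower. Cpa3, a mast cell protease also seen in early thymic progenitors, had 73.0, 23.5 and 14.5 normalised counts in the BCL11blowID2low libraries and 352, 369 and 414 in the BCL11b-ID2- libraries (adjusted p = 7.25e-06), while Mcpt8 and Fcer1a were at 0 in the BCL11blowID2low gate. The 4 mast and basophil markers summed to 58.1 to 118 in the BCL11blowID2low libraries and 1308 to 1653 in the BCL11b-ID2- libraries. Kit, the receptor of early thymic progenitors, is among these markers and made up most of the sum in the BCL11b-ID2- libraries. Erythroid and megakaryocyte genes were lower in 3 of 8, and their 5 markers summed to 0 to 45.2 in the BCL11blowID2low libraries and 182 to 362 in the BCL11b-ID2- libraries. Macrophage genes gave no call in limma among 13 tested, and the gates did not overlap for 5 of them (28.3% of all genes). Of them, 3 had an unadjusted p under 0.05 in limma, none passed with edgeR and 2 with DESeq2 on recovered reads, and 1 passed without BCL11b-ID2- library 4. The 7 macrophage and monocyte markers, of which Lyz2 was called lower but not without BCL11blowID2low library 2 or with edgeR, summed to 246 to 445 in the BCL11blowID2low libraries and 269.6 to 429 in the BCL11b-ID2- libraries. C1qb, a complement gene of macrophages, had 56.4, 104 and 111 against 14.6, 23.9 and 23.05 (adjusted p = 0.151), so its transcript was present in each library of both gates. C1qb was called higher in the fit of the 6 libraries alone and with a pseudocount of 8 (adjusted p = 0.0393 and 0.0224).

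Epithelial and stromal genes were lower in 6 of 8, which moved to 3 without BCL11b-ID2- library 4, where 7.35% of all genes were lower. Psmb11, the thymoproteasome gene of cortical epithelium, was at 0 in the BCL11blowID2low libraries and had 19.52, 36.2 and 15.4 normalised counts in the BCL11b-ID2- libraries (adjusted p = 0.000562). The 7 epithelial and stromal markers summed to 62.1 to 224 in the BCL11blowID2low libraries and 327 to 509 in the BCL11b-ID2- libraries. The 8 T-lineage markers summed to 10324 to 12199.6 in the BCL11blowID2low libraries and 1707 to 1982 in the BCL11b-ID2- libraries. The 6 NK markers came to 1406 to 2033 in the BCL11blowID2low libraries and 133 to 193 in the BCL11b-ID2- libraries, with Il2rb the member called. Among the ILC2 markers, Rora and Gata3 were called higher and Il1rl1 and Il17rb lower. Rora and Gata3, which are not confined to ILC2s, made up most of the ILC2 sum in the BCL11blowID2low libraries. Sums of the 8 ILC2 markers were 704 to 1119 in the BCL11blowID2low libraries and 195 to 318 in the BCL11b-ID2- libraries. For the 5 ILC3 markers they were 1486 to 2209.6 in the BCL11blowID2low libraries and 7.23 to 14.6 in the BCL11b-ID2- libraries, and for 6 progenitor markers 71.4 to 108 in the BCL11blowID2low libraries and 3435 to 4101 in the BCL11b-ID2- libraries. The part of these lineages in the results above was not tested.

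Most chemokine receptor and homing genes differed between the gates. Of 24 tested, 15 were higher and 5 lower, where 6.70% of all genes were higher and 7.35% lower. The number called higher was also 15 when each library in turn was left out. Ccr4, the receptor for CCL17 and CCL22, had 855, 1255 and 1037 normalised counts in the BCL11blowID2low libraries and 1.22, 0 and 24.0 in the BCL11b-ID2- libraries, 125-fold higher (adjusted p = 1e-06). Ccr2 had 2324, 1896 and 2029.9 against 109, 62.9 and 109 (log2 difference 4.5 ± 0.29 SE, adjusted p = 2.08e-10). S1pr1 and Ccr7, receptors that guide exit from and movement within the thymus, had log2 differences of 3.65 and 4.31, and Itgae, the integrin chain that binds E-cadherin, one of 4.37. Those lower included Cxcr4 and the integrin genes Itga4, Itgb1 and Itga1, the last of which lost its call without BCL11blowID2low library 1 or BCL11b-ID2- library 4, in the fit of the 6 libraries alone and with a pseudocount of 8. Cxcr4, which holds progenitors at CXCL12, had 154, 116 and 170.3 against 559.8, 361 and 497 (adjusted p = 0.000267).

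Among cytokine receptors and cytokines the calls went both ways. Tnfrsf25, the DR3 receptor for TL1A, had 281, 136 and 111 normalised counts in the BCL11blowID2low libraries and 3.66, 0 and 0 in the BCL11b-ID2- libraries (adjusted p = 1.29e-06). Of the lymphotoxin genes, Lta was 61.8-fold (95% counting interval 11.1 to 2440.0) higher and Ltb 11.1-fold higher. Il27ra, a receptor chain for IL-27, was 23.9-fold higher (adjusted p = 5.63e-06). Fasl, the death ligand, was lower at 0, 2.24 and 0 against 196, 67.3 and 129.7 (adjusted p = 3.43e-06). Of 32 cytokine receptor genes 11 were higher and 9 lower, and of 22 cytokine and effector genes 7 were higher and 4 lower, the last of which became 2 without BCL11b-ID2- library 4. Over all genes the shares were 6.70% higher and 7.35% lower.

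Of 19 mitotic genes, 8 were higher, none was lower and 11 did not pass, where 6.70% of all genes were higher. Mki67, a proliferation antigen, had 4271, 5626 and 4832 normalised counts in the BCL11blowID2low libraries and 1548, 1269.5 and 1752 in the BCL11b-ID2- libraries (log2 difference 1.69 ± 0.18 SE, adjusted p = 7.74e-07). Ube2c, a ubiquitin ligase subunit of mitotic exit, was 4.93-fold higher and Top2a 2.55-fold higher. The mitotic count was 5 without BCL11b-ID2- library 1 or 2 and in the fit of the 6 libraries alone. None of 20 replication genes passed in limma, with edgeR or DESeq2 on recovered reads, or when each library in turn was left out. Of them, 2 had an unadjusted p under 0.05 in limma and 3 each in edgeR and DESeq2. Mcm6, a helicase subunit, had 916, 1297 and 1019 against 1393, 1566 and 1317 (adjusted p = 0.469).

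MHC class I genes were higher in 7 of 10, or in 5 or 6 when each library in turn was left out. Of all genes tested, 6.70% were higher and 7.35% lower. The heavy chain gene H2-D1 had 2702, 2838 and 2207 normalised counts in the BCL11blowID2low libraries, against 798, 709.6 and 803 in the BCL11b-ID2- libraries (adjusted p = 3.05e-07). H2-K1 had 1859, 1686 and 1970.2 against 631, 773 and 751 (adjusted p = 7.77e-06), and reads of this family of similar genes may be divided among its members. Tap1, the peptide transporter subunit, was 3.15-fold higher (adjusted p = 0.000405). Glycolytic genes were higher in 7 of 16, with Pfkp, a phosphofructokinase, at 538, 578 and 505 against 80.5, 124 and 87.4 (adjusted p = 5.42e-06). The glycolytic count fell to 3 without BCL11b-ID2- library 1 and to 4 without BCL11b-ID2- library 2 or BCL11blowID2low library 2 or 4. Gimap4, a GTPase of mature lymphocytes, had 1220.0, 827 and 663 against 57.3, 44.1 and 60.5 (adjusted p = 9.37e-05), and the GIMAP family had 3 of 8 higher, or 1 without BCL11b-ID2- library 1. Of 8 mitochondrially encoded genes, mt-Nd6 was called, lower (log2 difference -0.78 ± 0.19 SE, adjusted p = 0.00561). The shares of mitochondrial ribosomal RNA given above overlapped between the gates and were not tested.

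The ranking by log2 difference named further genes outside the lists. Those higher were Map1b, which encodes a microtubule-associated protein, Mmp25, a membrane-bound metalloproteinase, Aqp3, a water and glycerol channel, Rln3, a relaxin peptide, and Mturn. Map1b had 254, 801 and 708 normalised counts in the BCL11blowID2low libraries and 0, 0 and 14.4 in the BCL11b-ID2- libraries (adjusted p = 3.56e-06). Aqp3, Rln3 and Mturn had no reads in the BCL11b-ID2- gate and were at least 162-fold higher, at least 133-fold higher and at least 129-fold higher. Among those lower, Alox5ap, which encodes an activator of leukotriene synthesis, Car2, a carbonic anhydrase, Btk, a kinase of B and myeloid cells, and Ctla2a, a protease inhibitor, had no reads in the BCL11blowID2low gate. Alox5ap had 363, 199 and 299 in the BCL11b-ID2- gate and was at least 262-fold lower (adjusted p = 3.49e-08). Prg2, an eosinophil granule protein, had no reads against 229, 219 and 128 (adjusted p = 5.81e-07) and was not called with DESeq2 on recovered reads. Nfe2, a factor of megakaryocytes, was 666-fold (95% counting interval 119 to 26297) lower, and Cd33 and Spns2, a myeloid siglec and a sphingosine 1-phosphate transporter, were 331-fold (95% counting interval 113 to 1605) lower and 512-fold (95% counting interval 92.0 to 20240.3) lower. Cd180, a receptor of B and myeloid cells, had 0, 0 and 19.4 against 477, 428 and 531 (adjusted p = 2.26e-05).

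**Figure D4:**
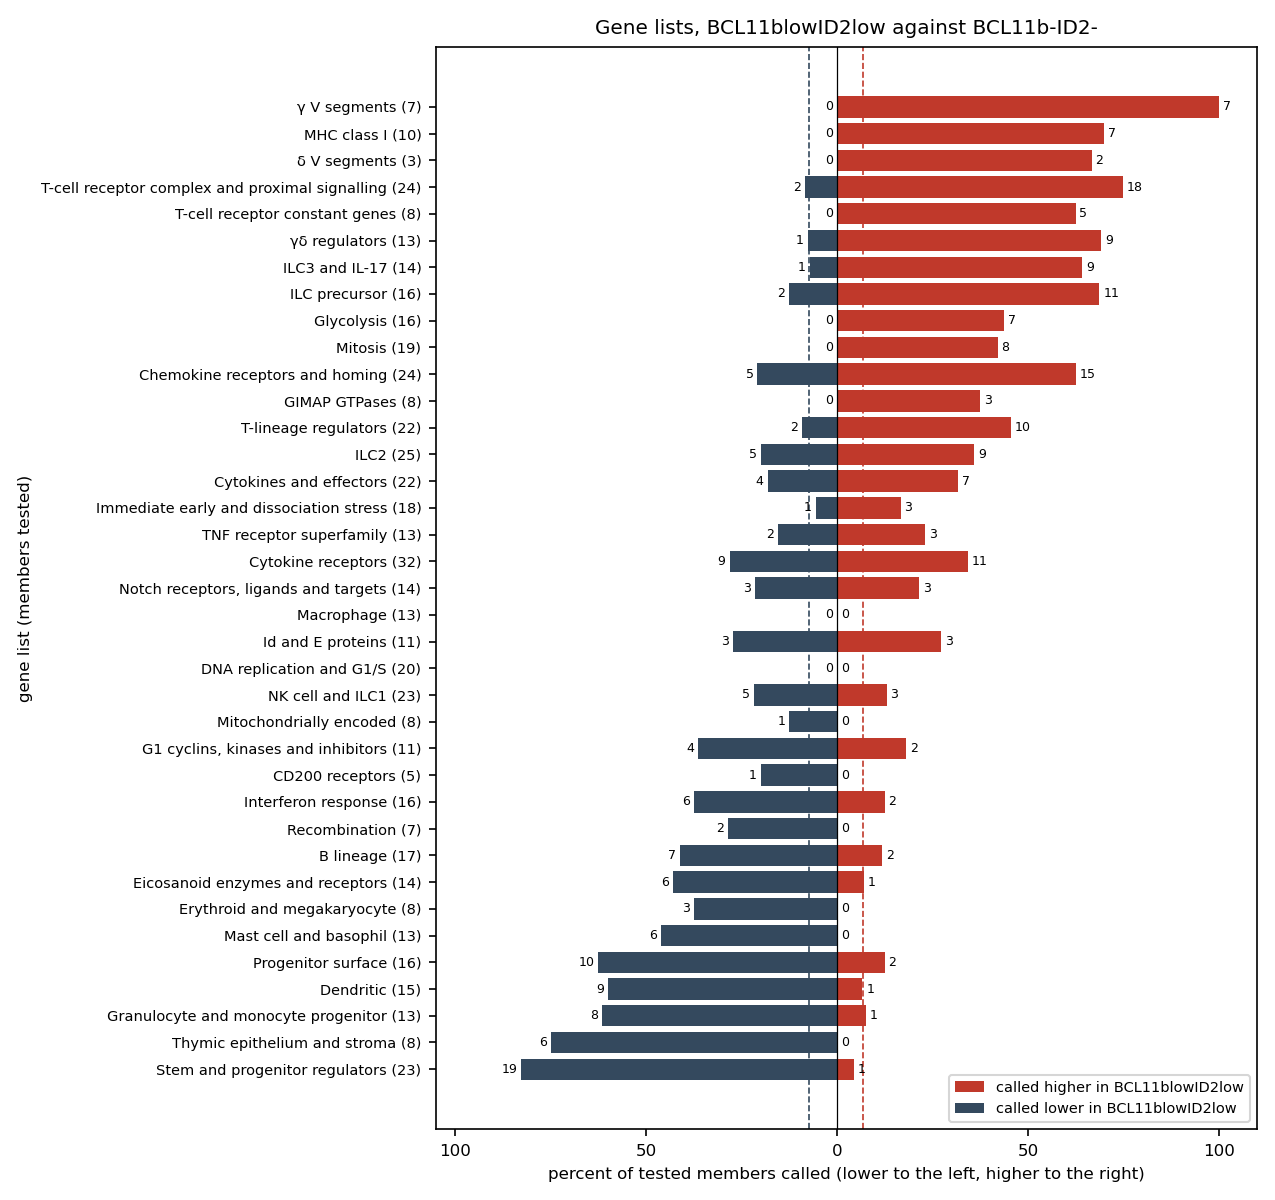
Percent of tested members of each gene list called higher (right) or lower (left) in the BCL11blowID2low gate against the BCL11b-ID2- gate, with the number called beside each bar and dashed lines at the share of all 13840 genes, 6.70% higher and 7.35% lower. The γδ, IL-17 and T-cell receptor lists extend to the right and the stem and progenitor lists to the left.

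The place of the BCL11blowID2low gate among the 6 populations of the stage was described from the means. Of the 927 genes higher than in BCL11b-ID2-, 345 had their highest mean in BCL11blowID2low. Another 210 had it in BCL11b-ID2+ and 188 in BCL11b+ID2-, while 166 had it in the gate with both reporters and 18 in DN2. Of the 1017 lower genes, 560 had their lowest mean in BCL11blowID2low. All 3 BCL11blowID2low libraries were above all 15 others for 58 of the 927 genes, compared with 83 of all 13840 tested (0.600%), and below all others for 53 of the 1017, compared with 65 (0.470%). The called genes were picked by their difference from BCL11b-ID2-, which is among the gates compared here. Their larger shares therefore follow in part from that choice, as do the counts of highest and lowest means. Il23r averaged 744 ± 212 normalised counts in BCL11blowID2low, against 92.1 ± 19.0 in BCL11b+ID2+, the next highest gate (n = 3), a ratio of means of 8.08-fold. Zbtb16 and Cxcr5 stood 4.28-fold and 7.44-fold above their next highest gates. Irf4, a factor that antigen receptor signals induce, averaged 473 ± 324 in BCL11blowID2low and 34.0 ± 14.7 in BCL11b-ID2-, and Vdr, the vitamin D receptor, 581 ± 196 and 10.7 ± 5.03. Irf4 and Vdr lie outside the ranking and were picked after their values were seen.

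Other genes of the programme had means in another gate that were close to or above those in BCL11blowID2low. Trdc averaged 2509.8 ± 512 normalised counts in BCL11blowID2low and 2971 ± 339 in BCL11b+ID2-. Il17a averaged 55.0 ± 25.9 and 52.8 ± 34.99 in these gates and Maf 1576 ± 365 and 2019 ± 369.6. Sox13 averaged 857 ± 132 in BCL11blowID2low and 2859 ± 408 in BCL11b+ID2-. Cxcr6 averaged 1501 ± 281 in BCL11blowID2low and 1930.4 ± 519.9 in BCL11b+ID2+, and Mmp25 425 ± 127 and 706 ± 199. Ccr6 was also higher with both reporters, with a mean log2(value + 1) of 8.36 in BCL11b+ID2+ and 6.54 in BCL11blowID2low. Differences from these other gates were not tested here.

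**Figure D5:**
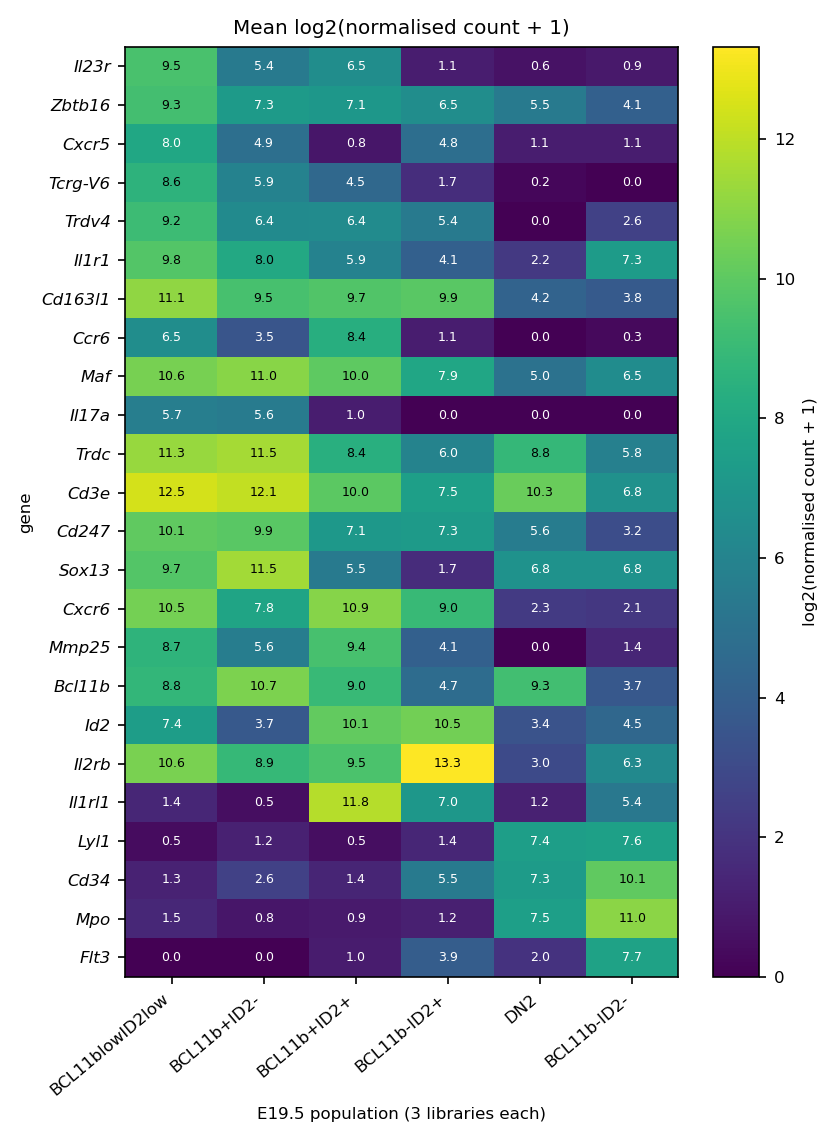
Mean log2(normalised count + 1) of 24 genes (rows) in the 6 E19.5 populations (columns), 3 libraries each, with BCL11blowID2low at the left and BCL11b-ID2- at the right. Il23r, Tcrg-V6, Trdv4 and Zbtb16 have their highest value in the BCL11blowID2low column, and the progenitor genes in the BCL11b-ID2- column.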

How the data were processed

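The series measured RNA in bulk libraries of sorted thymocytes, and 18 libraries of E19.5 were used, made from amplified RNA (Ovation RNA-seq System V2), per the labels' protocols. The authors deposited normalised counts, a signal in which counts were divided by size factors, made with DESeq2 1.18.1 after Trim Galore 0.50 and STAR 2.6.0a on GRCm38, per the submitters' processing notes. The counter and annotation are not given in the sources used here, nor is strand, so overlapping and antisense genes may share reads. Values were whole multiples of the worth of 1 read (100% within 0.01 of a whole read).

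Of 26244 genes, 13840 had a value of 10 or more in at least 3 libraries and were tested. Values were tested as log2(value + 1) with limma 3.58.1 (trend and robust) in R 4.3.3 over all 18 libraries, with Benjamini-Hochberg adjustment at 0.05. Differences are therefore on the log2(value + 1) scale, which understates those of low genes. Folds are ratios of mean normalised counts. Alternatives were a pseudocount of 8, no filter, TMM scaling, the 6 libraries alone, library weights, a block of library number, edgeR 4.0.16 and DESeq2 1.42.0 on recovered reads, and each library left out. The fit was tested on simulated data.

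Named genes were the 12 with the largest log2 difference in each direction among genes called without overlap and with a mean of at least 100, and up to 6 called and 3 uncalled members per list. Predicted, mitochondrial and ribosomal protein genes and receptor segments were left out of the ranking, and some genes that the rule names are not reported here. Members and lists were chosen with earlier results of these data known, and further list members and segments were named after their values were seen. Intervals and floors cover counting error only. Intervals were given where the gate with the lower mean had reads, but no more than 3. Folds on slightly more reads carry no interval and are uncertain too. Those of Mpo and Cd34 are examples, as is that of Il23r, which had 6 reads in BCL11b-ID2-. Gene positions are from GENCODE vM21 and promoters from RefSeq.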

Additional observations from a re-analysis of the deposited data

How the results depend on the processing

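The number of genes called was between 1388 and 1996 when each library in turn was left out, with 694 to 889 higher and 694 to 1107 lower. It was 1460 with the 6 libraries alone, 1581 with edgeR and 2001 with DESeq2 on recovered reads. With edgeR 884 were higher and 697 lower, and with DESeq2 1069 and 932. Of 138 named genes that were called, 122 kept their call and direction under each alternative run, and no called gene changed sign. Some genes that were not called changed sign. Cd44 lay at 0.0212 on the log2 scale with edgeR. With libraries left out, the log2 difference ran between -0.13 and 0.0949 for Cd44, -0.38 and 0.56 for Eomes, -0.55 and 0.28 for Etv5, and -0.0204 and 0.25 for Ikzf1. It ran between -0.75 and 0.0175 for Il2ra, -0.32 and 1.73 for Ptcra, and -0.52 and 0.59 for Tbx21. The cause was not tested.

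Libraries of the same number were not shown to be paired: deviations from the gate means correlated with r = 0.0435, 0.0151 and 0.0293 for numbers 1, 2 and 4, each the highest for its library as a hint from the data and not from the design. With the replicate block, 2158 genes were called, 1026 higher and 1132 lower, Lck among those lower and Tcf7 among those higher (adjusted p = 0.0359 and 0.0118), and Trac was not called. The depth of BCL11blowID2low library 1, at 2599470 reads, limits what could be detected among low genes.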

Other observations

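Regulators of the G1 phase differed between the gates in both directions, with 2 of 11 higher and 4 lower. Of all genes tested, 6.70% were higher and 7.35% lower. Cdk6, a G1 kinase of progenitors, had 1909, 2470.1 and 1723 normalised counts in the BCL11blowID2low libraries and 8279, 6934 and 5716 in the BCL11b-ID2- libraries (log2 difference -1.78 ± 0.21 SE, adjusted p = 2.64e-06, limma). Its partner cyclin gene Ccnd1 had 0, 0 and 21.8 against 117, 195 and 179.6 and was 22.6-fold lower (adjusted p = 0.000378). The inhibitor gene Cdkn1a was lower as well, at 0, 2.24 and 11.3 against 185, 211 and 96.0 (adjusted p = 1.46e-05), while Cdkn2c, another inhibitor, was higher at 193, 91.7 and 69.4 against 17.1, 0.723 and 1.92 (adjusted p = 7.87e-05). No library of either gate overlapped the other for these genes, which also held for 28.3% of all genes tested.

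Of 13 TNF receptor superfamily genes, 3 were higher and 2 lower, with 1 lower without BCL11blowID2low library 2 or BCL11b-ID2- library 1, in the fit of the 6 libraries alone, and with edgeR or DESeq2 on recovered reads. Tnfrsf9, the 4-1BB costimulatory receptor, had 129, 247 and 89.6 normalised counts in the BCL11blowID2low libraries and 6.10, 2.17 and 18.2 in the BCL11b-ID2- libraries (adjusted p = 0.000753), and Tnfrsf1b, a TNF receptor, had 344, 514 and 279 against 79.3, 93.3 and 103 (adjusted p = 0.000159). Of 18 immediate early and stress genes, 3 were higher and 1 lower, with 1 higher without BCL11b-ID2- library 1. Over all genes tested, 6.70% were higher and 7.35% lower. Klf2, a factor of mature T cells that controls exit genes, was higher at 118, 169 and 167 against 25.6, 14.5 and 19.2 (adjusted p = 0.000955). Of 16 interferon response genes, 2 were higher and 6 lower. Rsad2, an antiviral gene, was lower at 0, 19.0 and 8.07 against 109.8, 57.1 and 144 (adjusted p = 0.00118). The number of interferon genes called lower was 5 without BCL11blowID2low library 4, 3 without BCL11b-ID2- library 2, 2 without BCL11blowID2low library 1 or 2, and 1 without BCL11b-ID2- library 1 or 4. Ptger3, a prostaglandin E2 receptor, had 0, 1.12 and 0 against 63.4, 18.1 and 48.0 (adjusted p = 0.00036).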
